A study of Mus musculus with 2 samples.

Results

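Oxidative phosphorylation is carried by 5 protein complexes of the inner mitochondrial membrane. Complexes I to IV pass electrons to oxygen and complexes I, III and IV pump protons, and complex V, the ATP synthase, uses the proton gradient to make ATP. Most subunits are encoded in the nucleus, made in the cytosol and imported, while a small set of core subunits of complexes I, III, IV and V is encoded by the mitochondrial genome. Neurons of the spinal cord rely heavily on this pathway, and contusion is known to impair it. The genes described here are the nuclear-encoded subunit genes whose mouse symbols begin Nduf followed by a, b, c, s or v and a number, Sdha to Sdhd, Uqcr, Cox4 to Cox8 or Atp5, without pseudogenes. The name rule found 83 of the 32285 genes in the files: 35 of complex I, 4 of complex II, 8 of complex III, 19 of complex IV and 17 of complex V. Ndufa4, named after complex I, was counted with complex IV, where its protein sits.

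Their RNA was measured in single nuclei of injured spinal cord. Wild-type C57BL/6 mice, 6 to 8 weeks old, received a contusion at thoracic level T10 from a 5 g rod of 1 mm diameter falling 6 cm, and cord was taken at day 7. In the AEVs group the tail vein was injected on 5 days with athlete-derived extracellular vesicles (membrane particles shed by cells) holding 100 µg of protein in 100 µL of phosphate-buffered saline, and in the PBS group with 100 µL of the saline alone. Both groups had the same surgery and antibiotics, and no uninjured cord is among the samples used here. Each group is 1 library from a pool of 3 mice, so the libraries differ with no replicates behind them and no test was possible. Levels are unique molecular identifiers (UMIs) scaled to a class total of 1000000 (CPM). A ratio divides the AEVs level by the PBS level, and ranges in parentheses are exact 95% intervals that cover counting error alone. Fewer nuclei of a kind and less RNA per nucleus cannot be told apart when all nuclei are summed.

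The kept AEVs library held 15549 nuclei with 68103073 UMIs and the kept PBS library 14023 nuclei with 73085370 UMIs, at medians of 2400 and 2600 UMIs per nucleus. The AEVs library lost 103 barcodes and the PBS library 527 to a limit of 5% mitochondrial UMIs. The files shared 177 cell barcodes, and the summed member ratio in all nuclei was 0.22 on the log2 scale with and without them. Clustering gave 34 clusters. The neuron-like, oligodendrocyte-like, astrocyte-like, microglia-like, Gpnmb phagocyte-like, fibroblast-like, oligodendrocyte precursor-like, endothelial-like and Schwann-like classes had at least 100 nuclei in each library, as did 3 clusters left unnamed. Cluster 3 was led by Art3, Klk6 and Enpp6 with 9 of 10 oligodendrocyte markers raised, cluster 9 by the neurofilament genes Nefh and Nefl and by Prph, and cluster 17 by F13a1, Cd74 and Ms4a4b. In all nuclei the summed markers of erythroid cells, 124.9 CPM in AEVs and 57.2 CPM in PBS, and of fibroblasts, 272 CPM in AEVs and 528 CPM in PBS, moved most between the libraries, and their part in the member values was not tested.

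The members made up 1.11% of all UMIs in AEVs and 0.947% in PBS. Their summed level was 11056 CPM in AEVs and 9467 CPM in PBS, a ratio of 1.17 (1.16 to 1.17), or 0.22 on the log2 scale. A member was counted where the libraries summed to 100 UMIs or more. Of 81 such members, 70 had a ratio above 1, beside 62.1% of the 17478 genes with that many UMIs. The median log2 ratio of the members was 0.22, beside 0.093 over all those genes. A ratio of at least 1.5 was reached by 3 members, Cox6a2, Cox7a2l and Ndufb9, beside 8.88% of all genes, and a ratio of 1/1.5 or less by none, beside 3.94%. Most members thus differed by less than 1.5-fold, and mainly in 1 direction. With trimmed-mean (TMM) scaling the summed log2 ratio was 0.14, 64 members were above 1, beside 51.3% of all genes. None was then 1.5-fold higher, beside 6.49%, and 1, Cox7a1, was 1.5-fold lower, beside 5.09%. As a mean over nuclei the summed log2 ratio was 0.11.

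**Figure D1:**
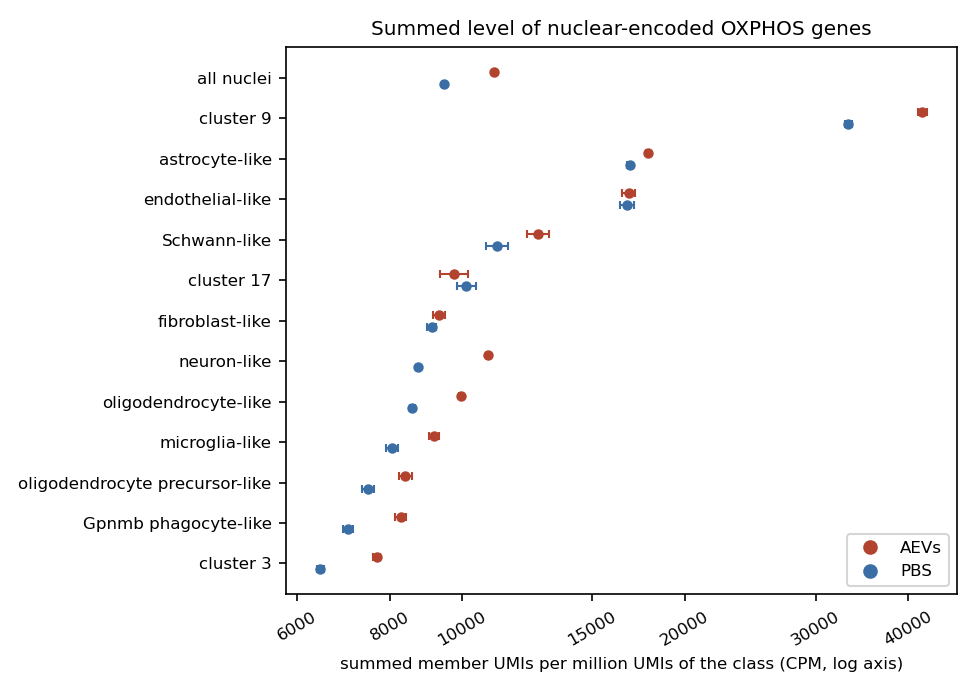
Summed level of the members (horizontal log axis, CPM) in all nuclei and in each of 12 classes or unnamed clusters (vertical axis), with AEVs above PBS in each row; points are 1 library each and bars are exact 95% Poisson intervals. The AEVs point lies right of the PBS point in every row but cluster 17, at 9766 CPM in AEVs and 10138 CPM in PBS; under TMM scaling the direction flips in the endothelial-like and fibroblast-like classes and cluster 17, and with genes under 10 kb as the total it flips in the astrocyte-like, microglia-like and oligodendrocyte precursor-like classes.

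Among the named classes the difference scaled to all UMIs was widest in neurons, but TMM scaling put Gpnmb phagocyte-like (0.23) above neuron-like nuclei (0.21), and genes under 10 kb as the total put Schwann-like (0.12) above neuron-like nuclei (0.067). Neuron-like nuclei, 4580 in AEVs and 3419 in PBS, had 10848 CPM in AEVs and 8718 CPM in PBS, a ratio of 1.244 (1.239 to 1.2498) and a log2 ratio of 0.32. In them 74 of 79 members were above 1, beside 64.3% of all genes, and the median was 0.31, beside 0.11. At least 1.5-fold higher were 5 members, beside 9.7% of all genes: Cox7a2l, Ndufb4, Ndufb9, Ndufa6 and Ndufb6. None was as much lower, beside 2.87%. All 10 neuron-like clusters with at least 100 nuclei in each library were above 1, with log2 ratios of 0.22 to 0.35, on levels that ran from 7425 to 14065 CPM in AEVs and from 6280 to 11734 CPM in PBS. The spread between these clusters in level was thus wider than the difference between the libraries within any of them.

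Oligodendrocyte-like nuclei, 4578 in AEVs and 3277 in PBS, had 9982 CPM in AEVs and 8573 CPM in PBS, a log2 ratio of 0.22. Of 76 members 68 were above 1, beside 61.9% of all genes, with a median of 0.18, beside 0.10 over all genes. At least 1.5-fold higher were 2, Ndufb9 and Atp5a1, beside 11.8% of all genes, and none as much lower, beside 4.69%. Cluster 8, led by Apod and Anln, held 1324 AEVs nuclei and 61 PBS nuclei, and without it the log2 ratio was 0.28. TMM scaling gave 0.12 and 54 members above 1, beside 50.2% of all genes. Microglia-like nuclei had 9177 CPM in AEVs and 8046 CPM in PBS, a log2 ratio of 0.19, with 56 of 74 members above 1, beside 53.1% of all genes, and 4 at least 1.5-fold higher, Uqcrfs1, Atp5a1, Uqcrc1 and Ndufa6, beside 9.27%. None was 1.5-fold lower, beside 4.31%.

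Astrocyte-like nuclei stood second only to cluster 9 in level, and their difference was small and unsettled. They had 17822 CPM in AEVs and 16841 CPM in PBS, a log2 ratio of 0.082, and 51 of 78 members were above 1, beside 54.6% of all genes. None was at least 1.5-fold higher, beside 5.94% of all genes, and 1, Cox7a1, was at least 1.5-fold lower, beside 3.01%. The value turned to -0.19 when barcodes over the mitochondrial limit were let in and stood at 0.24 when nuclei were limited to under 1% mitochondrial UMIs. It was 0.20 with doublet calls kept or at Leiden resolution 2, 0.048 with TMM scaling and -0.00070 with genes under 10 kb as the total. Of its 2 clusters, the one led by Agt and Slc39a12 had 17182 CPM in AEVs and 16216 CPM in PBS, and the one led by Gfap, Lcn2 and C3, genes of reactive astrocytes, 24542 CPM in AEVs and 25517 CPM in PBS. The median depth was 3601 UMIs in the Agt-led cluster and 934 UMIs in the Gfap-led cluster. Among all nuclei of 500 to 1000 UMIs the level was 17906 CPM in AEVs and 20105 CPM in PBS. The part of depth in the difference between these clusters was not tested.

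In the other classes the direction was not uniform. Gpnmb phagocyte-like nuclei had 8269 CPM in AEVs and 7018 CPM in PBS (log2 0.24), with 65 of 74 members above 1, beside 52.1% of all genes. There 6 were at least 1.5-fold higher, beside 8.2%, and none as much lower, beside 6.17%. Oligodendrocyte precursor-like nuclei had 8394 CPM in AEVs and 7469 CPM in PBS (0.17), with 52 of 71 above 1, beside 48%, 3 at least 1.5-fold higher, beside 5.19%, and none as much lower, beside 4.73%. Schwann-like nuclei had 12671 CPM in AEVs and 11164 CPM in PBS (0.18), with 16 of 23 above 1, beside 48.7%, 2 at least 1.5-fold higher, beside 10.1%, and none as much lower, beside 10.7%. Cluster 3 had 7674 CPM in AEVs and 6446 CPM in PBS (0.25), with 65 of 76 above 1, beside 64%, 5 at least 1.5-fold higher, beside 12.3%, and none as much lower, beside 4.51%. In endothelial-like nuclei the levels were 16790 CPM in AEVs and 16688 CPM in PBS and in fibroblast-like nuclei 9307 CPM in AEVs and 9104 CPM in PBS, ratios of 1.01 (0.977 to 1.04) and 1.02 (1.00 to 1.05) that counting error alone does not tell from 1. In these classes 28 of 65 and 45 of 76 members were above 1, beside 55.4% and 56.6% of all genes. No member of either class was 1.5-fold higher, beside 6.98% of genes in endothelial-like and 7.67% in fibroblast-like nuclei, or 1.5-fold lower, beside 8.27% and 6.36%. Cluster 17 had 8 of 21 above 1, beside 43.5%, none 1.5-fold higher, beside 11.5%, and 1 as much lower, beside 15%, and its ratio was 0.963 (0.914 to 1.01). The direction in endothelial-like and fibroblast-like nuclei and in cluster 17 flipped under TMM scaling.

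Cluster 9 was the highest in level. Its nuclei, 353 in AEVs and 696 in PBS, had 41769 CPM in AEVs and 33217 CPM in PBS, at shallow medians of 896 and 852.5 UMIs. There 66 of 76 members were above 1, beside 45.9% of all genes, and 9 were at least 1.5-fold higher, beside 9.63%, and none as much lower, beside 13.5%. It carried neurofilament RNA with all 10 oligodendrocyte markers and 9 astrocyte markers raised, and was left unnamed. Another clustering let members, mitochondrially encoded genes and cytosolic ribosomal protein genes in among the variable genes. There a like cluster of 346 AEVs and 694 PBS nuclei had 9 neuron markers raised and was named neuron-like. Cluster 9 was also rich in mitochondrially encoded RNA, with mt-Co1 at 3983 CPM in AEVs and 3282 CPM in PBS, far above its level in all nuclei. Barcodes left out for mitochondrial UMIs had a like member level, 45884 CPM in AEVs and 35296 CPM in PBS. The part of RNA from outside the nucleus in the member level of cluster 9 was not tested. Without cluster 9 the log2 ratio in all nuclei was 0.24. The order of the levels from cluster 9 through astrocyte-like, endothelial-like and Schwann-like to the lowest, cluster 3, was alike in both libraries at its ends. In PBS the endothelial-like and astrocyte-like intervals overlapped, 16331 to 17052 and 16714 to 16968 CPM, while in AEVs they did not.

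**Figure D2:**
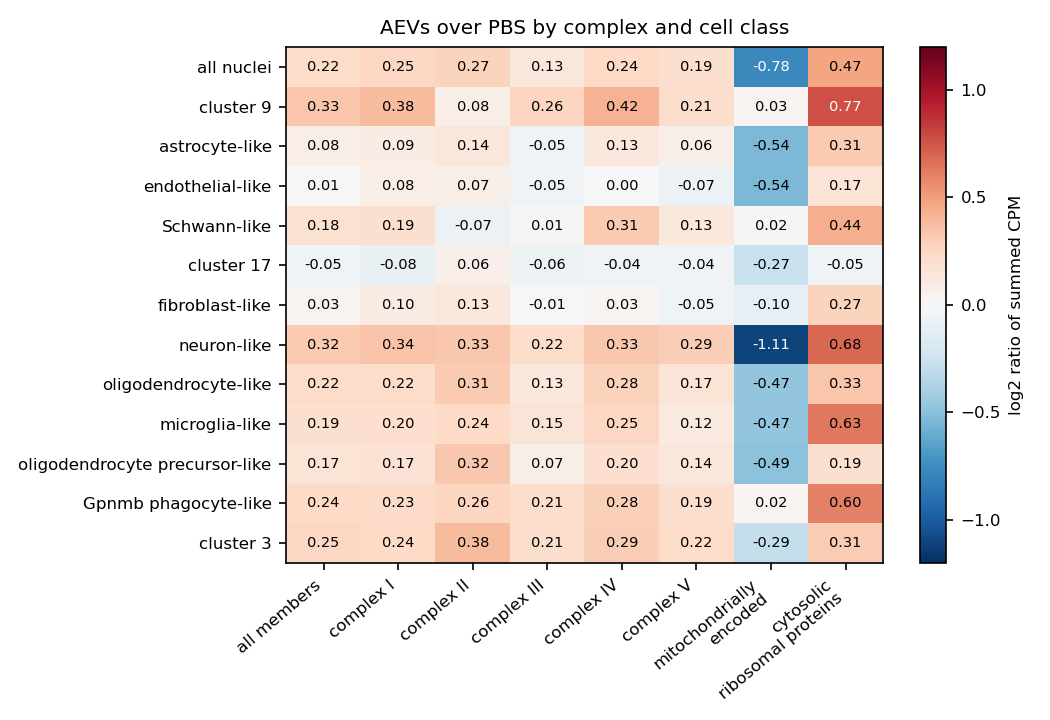
Log2 ratio of summed CPM (colour and printed values, AEVs over PBS) for all members, each complex, the mitochondrially encoded subunits and the cytosolic ribosomal proteins (columns) in each class (rows), 1 library per group. The 5 complexes share a sign in 8 of 13 rows, while the mitochondrially encoded column is negative in 10 of 13 rows; under TMM scaling every value of the endothelial-like and fibroblast-like rows is 0.05 lower, those of cluster 17 are 0.068 higher, and all-member and complex IV values there change sign.

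All 5 complexes had ratios above 1 in all nuclei. Complex I, which takes electrons from NADH, had 3871 CPM in AEVs and 3251 CPM in PBS, a ratio of 1.191 (1.184 to 1.1975). Complex II, succinate dehydrogenase, had 348 CPM in AEVs and 289 CPM in PBS, a ratio of 1.21 (1.18 to 1.23). Complex III, which passes electrons from ubiquinol to cytochrome c, had the smallest ratio, 1.10 (1.08 to 1.11), on 902 CPM in AEVs and 822 CPM in PBS. Complex IV, cytochrome c oxidase, had 3197 CPM in AEVs and 2704 CPM in PBS, a ratio of 1.18 (1.17 to 1.19). Complex V had 2738 CPM in AEVs and 2400 CPM in PBS, a ratio of 1.141 (1.133 to 1.148). Complex III was also the lowest of the 5 in neuron-like (log2 0.22), oligodendrocyte-like (0.13), astrocyte-like (-0.051) and oligodendrocyte precursor-like (0.069) nuclei and in cluster 3 (0.21). Complex V was the lowest in microglia-like (0.12), Gpnmb phagocyte-like (0.19), endothelial-like (-0.069) and fibroblast-like (-0.047) nuclei. Complex II was the lowest in Schwann-like nuclei (-0.066) and cluster 9 (0.075), and complex I in cluster 17 (-0.085). The makeup of the members hardly differed: complex I gave 35.0% of member UMIs in AEVs and 34.3% in PBS, and complex V 24.8% in AEVs and 25.4% in PBS.

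**Figure D3:**
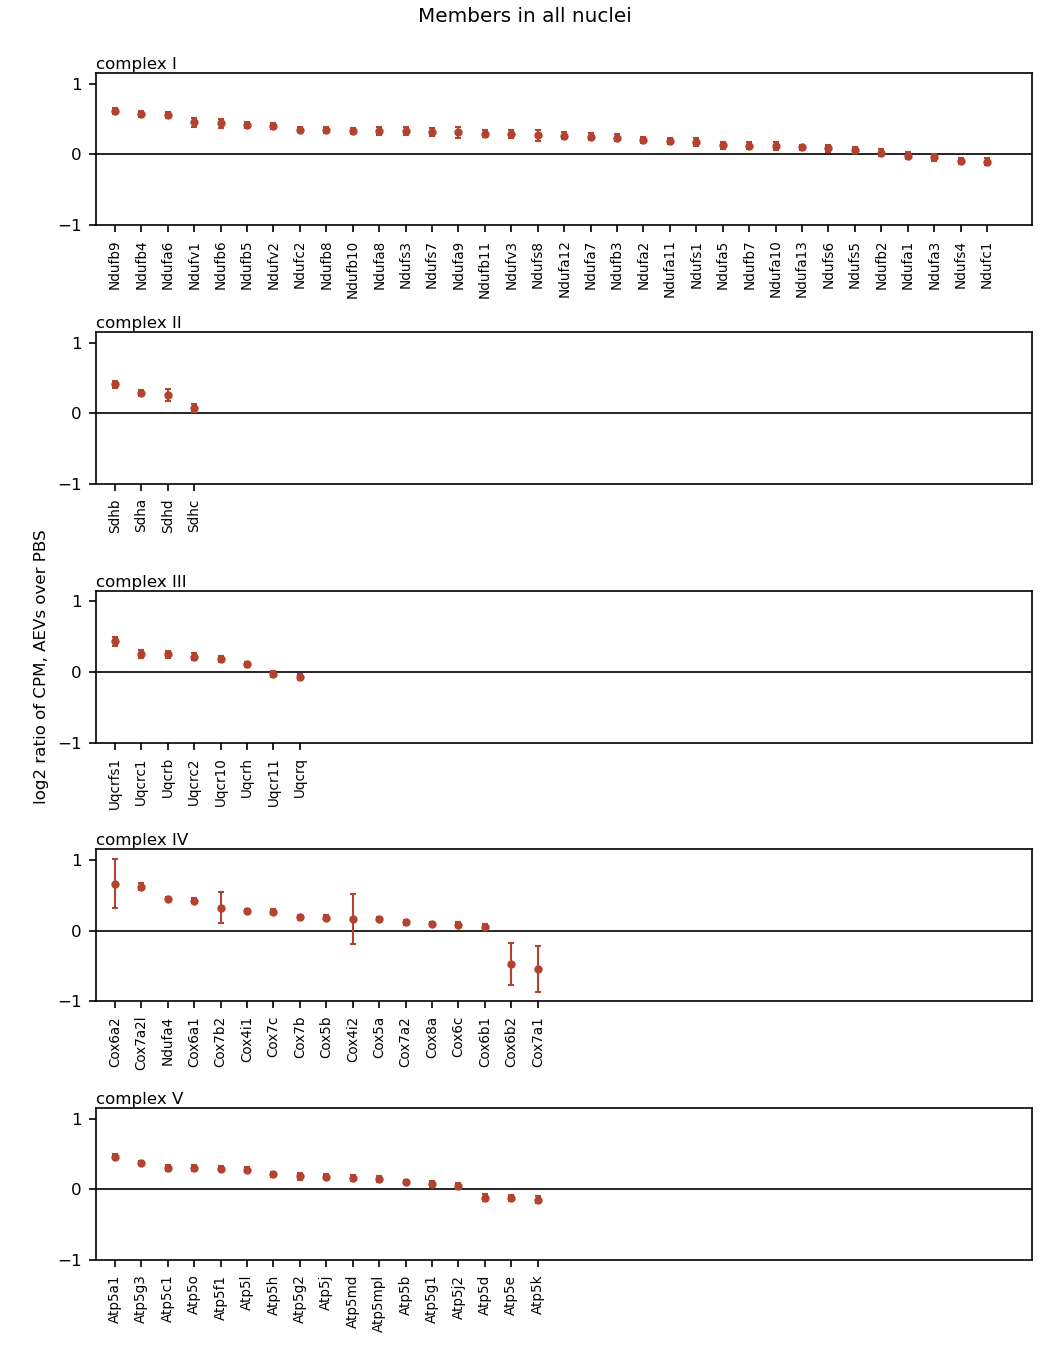
Log2 ratio (vertical axis, AEVs over PBS) of members with at least 100 UMIs in all nuclei, ordered within its complex; points are 1 library against 1 library and bars are exact 95% intervals for counting error. The values run from -0.54 for Cox7a1 to 0.67 for Cox6a2, both among the members of lowest level, and most lie above 0, as did 70 of all 81 counted members, or 64 with TMM scaling.

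In complex I the core subunits named here lay above 1. Ndufv1, which binds NADH, had 56.1 CPM in AEVs and 41.0 CPM in PBS, a ratio of 1.37 (1.30 to 1.44). Ndufs1, an iron-sulfur subunit, had 87.4 CPM in AEVs and 77.4 CPM in PBS, a ratio of 1.13 (1.09 to 1.17). The accessory subunits spread more widely than these. Ndufb9 had 165.8 CPM in AEVs and 108 CPM in PBS, a ratio of 1.53 (1.49 to 1.58). Ndufb4 had 141 CPM in AEVs and 94.97 CPM in PBS (ratio 1.49), and Ndufa6 had 194.5 CPM in AEVs and 132 CPM in PBS (ratio 1.47). At the other end Ndufc1 had 73.4 CPM in AEVs and 78.7 CPM in PBS, a ratio of 0.933 (0.898 to 0.969). Ndufs4, an accessory subunit whose loss in mice causes a Leigh-like brain disease, had 138 CPM in AEVs and 147 CPM in PBS, a ratio of 0.936 (0.910 to 0.962). It is also 1 of the 4 counted members longer than 30 kb. The 2 complex I members with the most UMIs were Ndufa13, at 197 CPM in AEVs and 184 CPM in PBS, and Ndufc2, at 225 CPM in AEVs and 176 CPM in PBS. Ndufa13 overlaps Yjefn3 on the same strand, so its UMIs may include reads of that gene.

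Sdhb and Uqcrfs1 had the highest ratios of complexes II and III in all nuclei, though not in every class. Sdhb, the iron-sulfur subunit of complex II, had 107 CPM in AEVs and 80.7 CPM in PBS (ratio 1.32), and Sdha, the flavoprotein, 129 CPM in AEVs and 106 CPM in PBS (ratio 1.22). Sdhc, a membrane anchor, had 72.9 CPM in AEVs and 69.4 CPM in PBS (ratio 1.05), while Sdhd, the other anchor, had 39.0 CPM in AEVs and 32.7 CPM in PBS (ratio 1.19). In complex III the Rieske iron-sulfur protein Uqcrfs1 had 69.6 CPM in AEVs and 51.5 CPM in PBS, a ratio of 1.35 (1.29 to 1.41). The core protein Uqcrc1 had 75.8 CPM in AEVs and 63.8 CPM in PBS (ratio 1.19). The hinge protein Uqcrh had 165 CPM in AEVs and 153 CPM in PBS (ratio 1.08). Uqcrq, a small subunit, had 133 CPM in AEVs and 140.0 CPM in PBS, a ratio of 0.951 (0.925 to 0.979).

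In complex V the alpha subunit Atp5a1 had 202 CPM in AEVs and 146 CPM in PBS, a ratio of 1.38 (1.35 to 1.42). Its partner, the beta subunit Atp5b, which holds the catalytic sites, had 243 CPM in AEVs and 226 CPM in PBS, a ratio of 1.08 (1.05 to 1.10). These proteins are built into the enzyme in equal numbers, yet their RNA ratios differed by more than counting error in all nuclei. The gap was not alike in every class. In oligodendrocyte-like nuclei Atp5a1 had 151 CPM in AEVs and 97.1 CPM in PBS (ratio 1.56) and Atp5b 179 CPM in AEVs and 159 CPM in PBS (ratio 1.13). In cluster 9 the ratios were 1.173 for Atp5a1 and 1.170 for Atp5b. Atp5a1 had the smaller ratio in oligodendrocyte precursor-like nuclei, at 1.10 (0.863 to 1.41) beside 1.32 (1.09 to 1.60) for Atp5b, and in cluster 17, at 0.823 (0.494 to 1.33) beside 0.981 (0.673 to 1.41), with overlapping intervals. The central stalk subunits Atp5d and Atp5e and the membrane subunit Atp5k were all below 1 in all nuclei. Atp5d had 89.9 CPM in AEVs and 97.7 CPM in PBS (ratio 0.919), Atp5e 107 CPM in AEVs and 116 CPM in PBS (0.917) and Atp5k 94.7 CPM in AEVs and 105 CPM in PBS (0.905). With TMM scaling they were lower still. Subunit c, which forms the rotating ring, comes from 3 genes with the same mature protein. Atp5g3 had 291 CPM in AEVs and 225 CPM in PBS (ratio 1.29), Atp5g1 125.8 CPM in AEVs and 119 CPM in PBS (1.05) and Atp5g2 101.04 CPM in AEVs and 88.9 CPM in PBS (1.14). Atp5g3 therefore gave 56.2% (55.7 to 56.7) of the UMIs of these genes in AEVs and 51.9% (51.4 to 52.5) in PBS.

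Complex IV holds most of the tissue isoforms. Cox4i1, the common form of subunit 4, had 496 CPM in AEVs and 409 CPM in PBS (ratio 1.22), and Ndufa4 had 488 CPM in AEVs and 357 CPM in PBS (ratio 1.37). Cox5a, a subunit on the matrix side, had 280 CPM in AEVs and 250.2 CPM in PBS, a ratio of 1.12 (1.10 to 1.14). Cox7a2l, a factor of complex III and IV supercomplexes whose protein is shortened in C57BL/6 mice and reported as unable to join them, had 102 CPM in AEVs and 66.5 CPM in PBS, a ratio of 1.54 (1.48 to 1.60). Its relative Cox7a2 had 169 CPM in AEVs and 155 CPM in PBS, a ratio of 1.09 (1.06 to 1.11). The share of Cox7a2l in the UMIs of Cox7a1, Cox7a2 and Cox7a2l was 37.5% (36.8 to 38.2) in AEVs and 29.6% (28.9 to 30.3) in PBS, and in neuron-like nuclei 39.3% (38.4 to 40.2) in AEVs and 30.4% (29.4 to 31.4) in PBS. Cox6a1, the widespread form of subunit 6a, had 224 CPM in AEVs and 167 CPM in PBS (ratio 1.34), against a ratio of 1.04 for Cox6b1, at 186 CPM in AEVs and 179 CPM in PBS. Cox7b had 184 CPM in AEVs and 162 CPM in PBS (ratio 1.14), and Cox8a 295 CPM in AEVs and 276 CPM in PBS (ratio 1.07).

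The isoforms known from muscle or testis were scarce, and they did not move together. Cox7a1, the heart and muscle form, had 134 UMIs in AEVs and 209 in PBS, a ratio of 0.688 (0.550 to 0.859). In astrocyte-like nuclei it had 41 UMIs in AEVs and 63 in PBS (ratio 0.589), and in neuron-like nuclei 70 in AEVs and 67 in PBS (ratio 1.05). Cox6b2, known as the testis form, had 163 UMIs in AEVs and 242 in PBS, a ratio of 0.723 (0.589 to 0.885). Cox8b, another muscle form, had 7 UMIs in AEVs and 25 in PBS, of which astrocyte-like nuclei gave 2 in AEVs and 15 in PBS. Cox8c had 2 UMIs in AEVs and none in PBS, where a count of 0 allows up to 0.041 CPM, so no fold is given. Neuron-like nuclei gave 295 of 365 Cox7b2 UMIs in AEVs and 229 of 313 in PBS, and there its ratio was 1.30 (1.09 to 1.55). These nuclei also held a large part of all UMIs, so the shares are not a measure of level. Cox4i2, a form known to be induced by low oxygen, made up 5.77% (3.84 to 8.28) of subunit 4 UMIs in endothelial-like nuclei of AEVs and 7.66% (5.30 to 10.6) in those of PBS, beside 0.254% (0.187 to 0.338) in AEVs and 0.208% (0.141 to 0.297) in PBS in neuron-like nuclei.

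Cox6a2, the muscle form of subunit 6a, gave the highest ratio in all nuclei, on 170 UMIs in AEVs and 115 in PBS, a ratio of 1.59 (1.24 to 2.03). In oligodendrocyte-like nuclei it had 89 UMIs in AEVs and 9 in PBS, a ratio of 8.38 (4.22 to 18.9), while in microglia-like nuclei it had 20 in AEVs and 27 in PBS. The gene lies inside the span of Itgad on the other strand (mm10 coordinates chr7:128205435-128206387 for Cox6a2). Itgad had 2504 UMIs in AEVs and 741 in PBS in oligodendrocyte-like nuclei, a ratio of 2.86 (2.64 to 3.11). Whether counting used strand is not given in the sources used here, so reads of the pair cannot be told apart. Over all 81 counted members, 26 overlap a gene on the other strand and had a median log2 ratio of 0.23, beside 0.22 for the other 55.

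**Figure D4:**
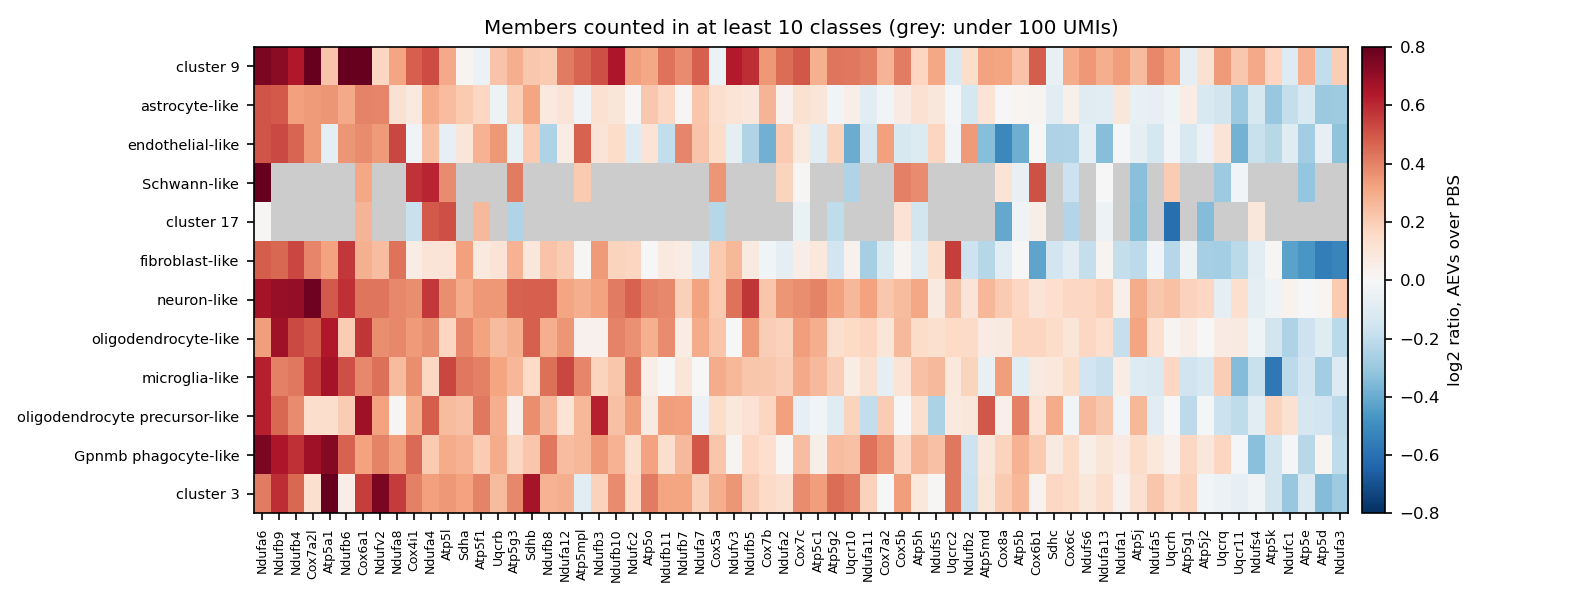
Log2 ratio (colour, AEVs over PBS) of the 65 members counted in at least 10 classes (columns, by their median over classes) in 12 classes or unnamed clusters (rows); grey cells had under 100 UMIs and each value compares 1 library with 1 library. Ndufa6, Ndufb9 and Ndufb4 at the left are above 0 in every class where they were counted, and Atp5e, Atp5d and Ndufa3 at the right are below 0 in most; TMM scaling shifts whole rows by -0.12 to 0.068.

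Some members held the same side of 1 in every class. Of 65 members counted in at least 10 of the 12 classes and unnamed clusters, 16, or 24.6%, were above 1 in each one where they were counted, beside 7.37% of the 1655 genes counted as widely. Ndufa6 was above 1 in 12 of 12, with a median log2 ratio of 0.56, Ndufb9 in 10 of 10 (0.56) and Ndufb4 in 10 of 10 (0.50). Cox6a1 was above 1 in 12 of 12 (0.39), Ndufa4 in 12 of 12 (0.35) and Cox7a2l in 10 of 10 (0.44). In neuron-like nuclei Ndufb4 had 137 CPM in AEVs and 83.7 CPM in PBS, and Ndufa6 196 CPM in AEVs and 124 CPM in PBS. In astrocyte-like nuclei, where the sum hardly differed, Ndufa6 had 297 CPM in AEVs and 209 CPM in PBS (ratio 1.42) and Ndufb9 320 CPM in AEVs and 227 CPM in PBS (ratio 1.41). In microglia-like nuclei Uqcrfs1 had 55.1 CPM in AEVs and 30.7 CPM in PBS, a ratio of 1.80 (1.24 to 2.63), on 96 and 44 UMIs.

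At the low end, Atp5e was above 1 in 1 of 11 classes, with a median log2 ratio of -0.15, Ndufa3 in 2 of 10 (-0.21), Atp5d in 2 of 10 (-0.17), Ndufc1 in 2 of 10 (-0.15) and Atp5k in 3 of 10 (-0.15). In microglia-like nuclei Atp5k had 74.6 CPM in AEVs and 111 CPM in PBS, a ratio of 0.673 (0.530 to 0.854). In oligodendrocyte-like nuclei Ndufa3 had 117 CPM in AEVs and 136 CPM in PBS (ratio 0.859), and in neuron-like nuclei it had 83.6 CPM in AEVs and 72.3 CPM in PBS (ratio 1.16). The other classes had members past 1.5-fold that counting error alone does not bring back to 1. In Gpnmb phagocyte-like nuclei Ndufs8, an iron-sulfur core subunit, had 34.9 CPM in AEVs and 16.7 CPM in PBS (ratio 2.08), and Sdhd had 32.5 CPM in AEVs and 18.8 CPM in PBS (ratio 1.73). In Schwann-like nuclei Cox7a2l had 42 UMIs in AEVs and 19 in PBS (ratio 2.41), and Ndufc1 had 23 in AEVs and 43 in PBS (ratio 0.583). Uqcrc1 had 31 in AEVs and 8 in PBS there, a ratio of 4.23 (1.90 to 10.6). These rest on few UMIs. Cluster 3 had Atp5a1 at 141 CPM in AEVs and 79.0 CPM in PBS (ratio 1.79), and cluster 9 had Cox6a1 at 1045 CPM in AEVs and 585.5 CPM in PBS (ratio 1.78). Oligodendrocyte precursor-like nuclei had Cox6a1 at 210.5 CPM in AEVs and 131 CPM in PBS (ratio 1.60). In cluster 17 Ndufa3 had 16 UMIs in AEVs and 61 in PBS (ratio 0.509), and Ndufa7 31 in AEVs and 35 in PBS (ratio 1.72). Fibroblast-like nuclei had Cox6b2 at 19 UMIs in AEVs and 15 in PBS, a ratio of 2.37 (1.14 to 5.01) on few UMIs. Cox6b2 went the other way in Gpnmb phagocyte-like nuclei, at 0 UMIs in AEVs and 8 in PBS, and in microglia-like nuclei, at 0 in AEVs and 6 in PBS. Endothelial-like nuclei had no member past 1.5-fold with an interval that left out 1. The classes share 2 libraries, so a member's values in them are not independent repeats.

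The high and low members were also set beside their promoters. Of the 83 members 67 had a promoter window in the RefSeq table for GRCm38.p6, the same build as mm10, and its 250 bases before the gene start were searched on both strands. RefSeq and GENCODE place some gene starts differently, so the last 85 bases of the Ndufb4 window, 23 of the Cox6a1, 49 of the Atp5k and 4 of the Atp5e window lie inside the GENCODE span, with 2 of 3 marked matches of Ndufb4, 1 of 3 of Cox6a1 and the 1 of Atp5k reaching into it. The core site of NRF1, a regulator of respiratory genes, reads GCGCA, any base, then GCGC, and was found in 13 members, or 19.4%, beside 4.23% of 27025 genes. CCGGAAG, the core of the ETS factor GABPA (also called NRF2), was found in 12, or 17.9%, beside 7.83%. AAGATGGC, a core of YY1, was found in 1.49% of members and 1.83% of genes, and GGGCGG, a core of SP1, in 35.8% of members and 35.4% of genes. Matches stood at both ends of the order of ratios, but other members there had none. Neither the NRF1 nor the GABPA core was found in the windows of Ndufa6, Ndufa4 and Cox7a2l at the high end. At the low end neither was found in those of Atp5d, Ndufa3 and Ndufc1. Ndufb9 had no window. All 4 windows shown hold a match, so they do not stand for the rest of either end. The windows of Ndufb4 and Cox6a1, above 1 in every class counted, and of Atp5k and Atp5e, below 1 in most, are shown 5′ to 3′ on the gene's own strand, which is the minus strand for all 4, at chr16:37654369-37654618, chr5:115348959-115349208, chr5:108434400-108434649 and chr2:174464102-174464351. Capitals mark matches to the NRF1 core or, as its reverse complement CTTCCGG, to the GABPA core.
Ndufb4: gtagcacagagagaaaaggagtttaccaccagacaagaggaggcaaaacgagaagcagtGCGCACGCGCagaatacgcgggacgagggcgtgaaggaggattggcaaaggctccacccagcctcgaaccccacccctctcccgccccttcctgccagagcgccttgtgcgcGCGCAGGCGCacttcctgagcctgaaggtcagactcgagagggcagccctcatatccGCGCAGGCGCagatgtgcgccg
Cox6a1: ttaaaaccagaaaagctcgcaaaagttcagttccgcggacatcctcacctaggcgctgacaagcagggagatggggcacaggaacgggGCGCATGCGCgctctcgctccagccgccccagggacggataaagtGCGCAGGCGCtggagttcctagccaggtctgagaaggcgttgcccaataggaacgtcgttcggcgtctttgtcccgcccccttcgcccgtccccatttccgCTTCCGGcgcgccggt
Atp5k: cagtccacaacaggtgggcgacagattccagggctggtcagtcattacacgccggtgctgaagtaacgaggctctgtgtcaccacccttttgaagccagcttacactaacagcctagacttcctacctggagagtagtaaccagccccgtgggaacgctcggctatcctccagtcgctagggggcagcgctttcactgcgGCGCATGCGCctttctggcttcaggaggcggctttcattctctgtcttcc
Atp5e: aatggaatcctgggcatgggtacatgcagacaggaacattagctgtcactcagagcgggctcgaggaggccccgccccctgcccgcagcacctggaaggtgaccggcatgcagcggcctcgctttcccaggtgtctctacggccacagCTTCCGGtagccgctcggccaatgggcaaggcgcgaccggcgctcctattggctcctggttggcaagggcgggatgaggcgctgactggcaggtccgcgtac

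The members are short genes, with a median length of 7206 bases from start to end, and 58 of the 83 are under 10 kb. Short genes as a whole were higher in the AEVs library. In all nuclei the 4491 genes under 10 kb had a median log2 ratio of 0.27, with 77.0% above 1, while the 56 counted members of that length had a median of 0.19, with 46 above 1. For genes of 10 to 30 kb the median was 0.29 over 21 members and 0.16 over 5425 genes, and over 30 kb it was 0.15 over 4 members and -0.027 over 7549 genes. In neuron-like nuclei the medians under 10 kb were 0.30 for members and 0.33 for all genes, in oligodendrocyte-like nuclei 0.17 and 0.26, in microglia-like nuclei 0.16 and 0.30, and in astrocyte-like nuclei 0.023 and 0.13. Short members thus had a lower median than short genes in general in these classes. The order was the other way in oligodendrocyte precursor-like nuclei, at 0.18 for members and 0.15 for all genes, in cluster 9, at 0.31 and 0.24, and in cluster 17, at -0.053 and -0.079. With the UMIs of genes under 10 kb as the total, the summed log2 ratio was 0.052 in all nuclei, 0.067 in neuron-like and 0.033 in oligodendrocyte-like nuclei, and below 0 in astrocyte-like (-0.00070) and microglia-like (-0.045) nuclei. Genes under 10 kb held 19.6% of all UMIs in AEVs and 17.4% in PBS. The part of this shift of short genes in the members' values was not tested further.

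**Figure D5:**
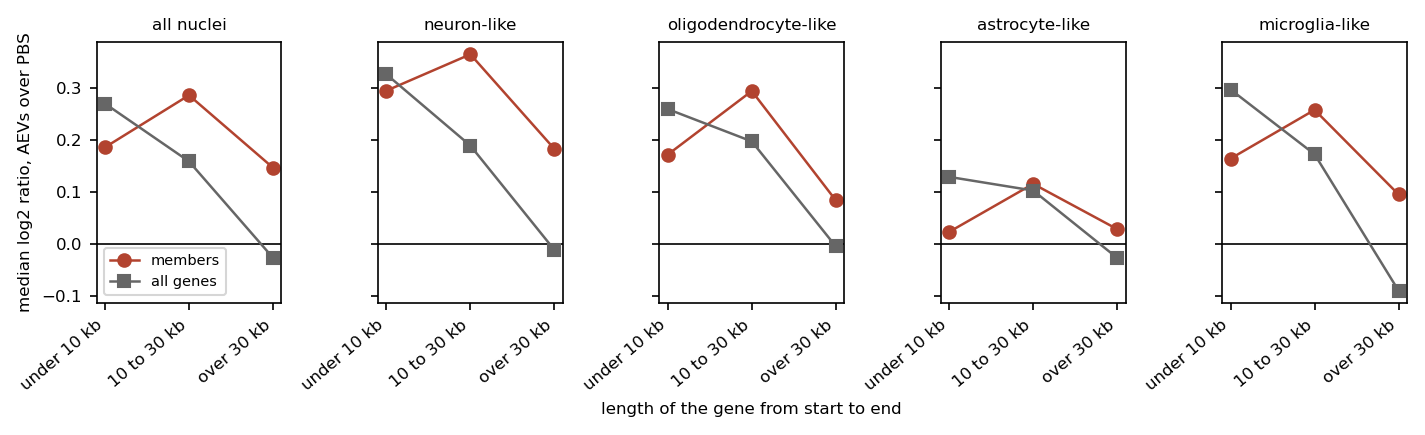
Median log2 ratio (vertical axis, AEVs over PBS) of the members (circles) and of all genes (squares) by gene length (horizontal axis) in all nuclei and 4 classes, 1 library per group. Under 10 kb the members lie below all genes in all 5 panels, and from 10 to 30 kb they lie above; the group over 30 kb holds 3 or 4 members.

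Depth per nucleus moved with the result. Nuclei were shallower in AEVs than in PBS in most classes, with medians of 7646.5 and 10235 UMIs in neuron-like and 2819 and 3445 UMIs in astrocyte-like nuclei. Among all nuclei of 500 to 1000 UMIs the summed level was 17906 CPM in AEVs and 20105 CPM in PBS, a log2 ratio of -0.17, and at 1000 to 2000 UMIs it was 0.054. At 2000 to 5000 UMIs it was 0.26, at 5000 to 10000 UMIs 0.21 and at 10000 UMIs or more 0.23. Thinning nuclei to 1000 UMIs each left 0.19 in all nuclei and 0.28 in neuron-like nuclei, after 1456 AEVs and 1488 PBS nuclei of all classes, 134 and 77 of them neuron-like, were left out as too shallow.

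The rest of the mitochondrial and energy genes did not move as 1 block. The 13 mitochondrially encoded subunits, whose proteins join those of the members in the same complexes, went the other way in all nuclei. Their sum was 2348 CPM in AEVs and 4020 CPM in PBS, a ratio of 0.584 (0.580 to 0.588), with all 13 below 1, from mt-Nd2 (54.3 CPM in AEVs and 151.8 CPM in PBS) to mt-Co1 (415 CPM in AEVs and 594 CPM in PBS). The gap was widest in neuron-like nuclei, at 927 CPM in AEVs and 2002 CPM in PBS. In nuclei such RNA comes from outside the nucleus, and the mitochondrial limit acts on these genes. Cytosolic ribosomal protein genes, which like the members are short and widely expressed, had 21072 CPM in AEVs and 15177 CPM in PBS, with 76 of 76 above 1 and a median of 0.47. Mitochondrial ribosomal protein genes were above 1 in 69 of 78, with a median of 0.25. Of all genes 62.1% were above 1, with a median of 0.093, and of genes under 10 kb 77.0%, with a median of 0.27.

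Beside the 62.1% of all genes above 1 and their median of 0.093, assembly factors of the complexes were above 1 in 36 of 49, with a median of 0.18, and genes of cytochrome c and other electron carriers in 15 of 20, with a median of 0.21. Sdhaf1, which helps insert iron-sulfur clusters into complex II, had 14.6 CPM in AEVs and 8.59 CPM in PBS (ratio 1.70), and Ndufaf2, a complex I assembly factor, 74.3 CPM in AEVs and 98.3 CPM in PBS (ratio 0.756). Taco1, which activates translation of the mitochondrial Co1 RNA, had 6.99 CPM in AEVs and 4.39 CPM in PBS (ratio 1.59), and Cox10, which makes heme for complex IV, 36.0 CPM in AEVs and 40.8 CPM in PBS (ratio 0.882). Coq10a, a ubiquinone-binding protein, had 30.9 CPM in AEVs and 18.2 CPM in PBS (ratio 1.70), and Pdss2, which makes the ubiquinone tail, 89.7 CPM in AEVs and 111 CPM in PBS (ratio 0.806). Coq6, an enzyme of ubiquinone synthesis, had 15.3 CPM in AEVs and 9.71 CPM in PBS, and Gpd2, a mitochondrial glycerol phosphate dehydrogenase, 53.6 CPM in AEVs and 65.4 CPM in PBS. Of the citric acid cycle and pyruvate dehydrogenase genes 14 of 21 were above 1 (median 0.18). Idh2, mitochondrial isocitrate dehydrogenase, had 35.8 CPM in AEVs and 22.9 CPM in PBS (ratio 1.57), and Pdhb, a pyruvate dehydrogenase subunit, 75.8 CPM in AEVs and 50.6 CPM in PBS. Ogdh, of the oxoglutarate dehydrogenase complex, had 113 CPM in AEVs and 133 CPM in PBS, and Pcx, pyruvate carboxylase, 26.7 CPM in AEVs and 31.3 CPM in PBS. Glycolysis genes were closer to all genes, with 13 of 22 above 1 and a median of 0.039. Slc2a1, a glucose transporter, had 54.5 CPM in AEVs and 41.9 CPM in PBS and Eno1, an enolase, 46.6 CPM in AEVs and 37.3 CPM in PBS. Pfkfb3, a regulator of glycolytic flux, had 24.5 CPM in AEVs and 34.9 CPM in PBS and Slc16a3, a lactate exporter, 1.53 CPM in AEVs and 1.92 CPM in PBS.

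Of the regulators of mitochondrial genes 6 of 14 were above 1 and 8 below, with a median of -0.015, beside 62.1% of all genes above 1. Esrrg, an orphan receptor that activates respiratory genes, had 181.6 CPM in AEVs and 257 CPM in PBS, a ratio of 0.705 (0.689 to 0.722), and its relative Esrrb had 2.51 CPM in AEVs and 3.98 CPM in PBS (ratio 0.631). Yy1 had 70.7 CPM in AEVs and 51.4 CPM in PBS, a ratio of 1.38 (1.32 to 1.44), and Tfam, which packs and transcribes mitochondrial DNA, 21.1 CPM in AEVs and 16.6 CPM in PBS (ratio 1.27). The Nduf genes Ndufab1, Ndufa4l2 and Ndufb1-ps, left out by the name rule, were above 1 in 3 of 3. Ndufa4l2, a relative of Ndufa4 known to be induced by low oxygen, had 78 UMIs in AEVs and 56 in PBS in endothelial-like nuclei, out of 199 in AEVs and 158 in PBS in all nuclei.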

How the data were processed

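Single nuclei of injured mouse cord were measured in 2 libraries, 1 per group, each a pool of 3 mice. The deposited matrices hold raw UMI counts per gene and nucleus, with at least 500 UMIs per barcode in the files. Nuclei were taken from frozen cord with a detergent, and a SeekOne DD 3' kit was used, per the labels' protocols. Seurat and mm10 are named, without versions, per the submitters' processing notes, and neither the aligner nor the use of strand is stated there. Barcodes with under 300 genes or at least 5% mitochondrial UMIs were left out, then Scrublet doublet calls (1400 in AEVs, 771 in PBS). Clustering used scanpy 1.11.5 with 2000 variable genes per library, 30 principal components, 20 neighbours and Leiden resolution 1. Members, mitochondrially encoded genes and cytosolic ribosomal protein genes were kept out of the variable genes. Clusters were named from marker lists of 17 classes, with at least 3 markers raised 2-fold. A cluster stayed unnamed where another class had more markers among its 10 leading genes than the best class had. Clusters led by neuron genes whose best class was not neuron also stayed unnamed, as did shallow clusters with no marker of the best class among those genes. Leaving neuron-led and shallow clusters unnamed was decided after their leading genes were seen. Raw UMI counts were summed per class and library. Intervals are exact Poisson, conditional binomial for ratios, and Clopper-Pearson for shares. TMM factors came from edgeR 4.0.16, and no model was fitted. Gene spans came from GENCODE M21. Members named singly were the 3 highest and lowest per class with at least 50 UMIs, the 2 with most UMIs per complex, tissue isoforms, core subunits, members past 1.5-fold, and the ends of each other list; not all are printed, and 1 is not reported here. Members and lists were chosen with earlier results of these data known. The code for ratios and intervals was run on simulated Poisson counts, the model that the intervals assume.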

Additional observations from a re-analysis of the deposited data

Results flagged for a closer look

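Several members lay above 1 in one class and below 1 in another, each with an interval that left out 1, and the differences between classes were not tested. Of the classes on each side of 1, the farthest from 1 is given, so the gaps are the widest by choice. The gap on the log2 scale, AEVs over PBS in each class, was 0.80 for Atp5b (0.40 in oligodendrocyte precursor-like, -0.39 in endothelial-like nuclei), 0.74 for Atp5e (0.28 in cluster 9, -0.46 in fibroblast-like nuclei) and 0.91 for Cox6b1 (0.48 in cluster 9, -0.42 in fibroblast-like nuclei). It was 0.85 for Cox8a (0.34 in microglia-like, -0.51 in endothelial-like nuclei), 0.52 for Ndufa1 (0.33 in cluster 9, -0.18 in oligodendrocyte-like nuclei) and 0.63 for Ndufa13 (0.29 in cluster 9, -0.34 in endothelial-like nuclei). Ndufa3 had a gap of 0.74 (0.21 in neuron-like, -0.53 in fibroblast-like nuclei), Uqcr10 of 0.82 (0.42 in cluster 9, -0.40 in endothelial-like nuclei) and Uqcr11 of 0.51 (0.13 in neuron-like, -0.38 in endothelial-like nuclei). Uqcrh had a gap of 0.92 (0.31 in cluster 9, -0.60 in cluster 17), Uqcrq of 0.49 (0.34 in cluster 9, -0.15 in astrocyte-like nuclei) and summed complex III of 0.31 (0.26 in cluster 9, -0.051 in astrocyte-like nuclei). Of these 12 gaps, 8 involve cluster 9.

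The barcodes left out for mitochondrial UMIs, 103 in AEVs and 527 in PBS, also carried member RNA. Their summed member level was 45884 CPM in AEVs and 35296 CPM in PBS, a log2 ratio of 0.38, at median depths of 862 and 1067 UMIs.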

How the results depend on the processing

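No paired analysis was possible because each group is 1 library. Of 76 alternative values of the summed log2 ratio in all nuclei and 4 classes, 73 were above 0. These leave out single ranges of depth, and nuclei of 500 to 1000 UMIs alone gave -0.17 in all nuclei. In all nuclei (0.22 as reported) it was 0.14 with TMM, 0.23 without mitochondrial and ribosomal genes in the total, 0.11 as a mean over nuclei, 0.30 under 1% mitochondrial UMIs, 0.16 with no mitochondrial limit, 0.24 with doublet calls kept, 0.19 thinned, 0.27 with the same mix of clusters, 0.052 scaled to genes under 10 kb, 0.25 in nuclei of at least 2000 UMIs and 0.24 without cluster 9. In neuron-like nuclei (0.32), in the same order as far as run, these were 0.21, 0.32, 0.27, 0.33, 0.29, 0.33, 0.28, 0.33 and 0.067 (genes under 10 kb), with 0.22 at resolution 2 and 0.28 with members among the variable genes. The last 2 values cover other nuclei, as a cluster led by Nefh and Prph, like cluster 9, was then named neuron-like. It held 157 AEVs and 577 PBS nuclei at resolution 2, and 346 and 694 with members among the variable genes. The setting with members also let mitochondrially encoded and cytosolic ribosomal protein genes in among the variable genes. At resolution 2 a cluster of 337 AEVs and 488 PBS nuclei with neuron markers raised was left unnamed. In oligodendrocyte-like nuclei (0.22) TMM gave 0.12, the mean over nuclei 0.20, under 1% mitochondrial UMIs 0.25, no limit 0.25, doublet calls kept 0.26, thinning 0.20, the same mix 0.26, resolution 2 0.25, genes under 10 kb 0.033 and leaving out cluster 8 0.28. In astrocyte-like nuclei (0.082) TMM gave 0.048, under 1% mitochondrial UMIs 0.24, doublet calls kept 0.20, thinning 0.12 and resolution 2 0.20, while no mitochondrial limit gave -0.19 and genes under 10 kb -0.00070. In microglia-like nuclei (0.19) members with at least 500 UMIs gave 0.28, and genes under 10 kb gave -0.045. At 500 UMIs 11 members were above 1 because fewer were counted, against 56 of 74 at 100 UMIs, beside 53.1% of all genes. The number counted and the share of all genes at 500 UMIs are not given here, so the 11 cannot be read as a share. Other causes were not tested. Scaling to genes under 10 kb, the depth limit, shared barcodes and left-out clusters were chosen after seeing the data. Under TMM the members at least 1.5-fold higher numbered 0 in all nuclei (6.49% of all genes), 3 in neuron-like (6.44%) and 0 in oligodendrocyte-like nuclei (8.81%), against 3, 5 and 2 as reported, and those as much lower 1 (5.09%), 1 (4.22%) and 0 (6.77%), against none as reported. With 1 pool per group the spread between mice is unknown, and members under about 100 UMIs in a class have wide counting intervals.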
